A study of Rattus norvegicus with 33 samples.

Results

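Neonatal estradiol benzoate (EB), a long-acting ester of estradiol, was compared with vehicle in adult male rats that all carried the same testosterone and estradiol (T+E) implants, at postnatal day (PND) 100. The comparison takes its arrays by their titles, 3 labelled EBTE and 3 labelled TE at PND 100, out of 33 arrays in the series. All animals were Sprague-Dawley (Hsd:SD) males. The EB+T+E group received 2.5 mg/kg EB under the skin on PND 1, 3 and 5, and the T+E group received vehicle. At PND 90 every animal of both groups was given 2 silastic inserts with testosterone and 1 with estradiol, so the tissue had been under implants for 10 days. Beside them stand, at PND 100, 3 control arrays (vehicle, 3 empty inserts) and 3 EB arrays (EB, 3 empty inserts), and at PND 145, after 55 days of implants, 3 EB+T+E and 3 T+E arrays. The sample labels say whole prostate and the series title says dorsolateral, so the lobes behind these samples remain unclear. Each group drew on 3 to 4 litters according to the labels, and a p-value here reflects only how much the samples spread. Its spread is estimated over all 33 arrays in 10 groups, not over the 6 compared. EB+T+E arrays of PND 100 were the least alike group, so standard errors and p-values here borrow tighter spread from other groups.

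The rodent prostate finishes its ductal branching after birth, and estrogen given in the first days of life is known to alter its later growth and its response to hormones, a process often called estrogen imprinting. Testosterone with estradiol in the adult is a standard way to provoke prostatic inflammation and epithelial overgrowth in rats. Neutrophils and macrophages enter inflamed tissue along chemokine gradients, and lymphocytes gather later around vessels and ducts.

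Levels are log2 of the array signal minus log2 of that array's 75th percentile, so a level of 0 is the brightness of the upper quartile. Between 61.7% and 67.4% of spots were well above background on the 6 arrays, and the number of arrays limits the precision. Levels cannot be compared between genes. In whole tissue, fewer cells of a type and less RNA per cell cannot be told apart. Probes of close gene families may bind related transcripts, so values for Stfa2l2, Clec4a2, Ifit1bl, Svs3a, Svs3b and the vomeronasal receptors are uncertain. Probasin (Pbsn), a secretory product of the lateral and dorsal lobes, had levels of 5.82, 5.05 and 5.35 on T+E 1 to 3 and 3.73, 5.37 and 4.02 on EB+T+E 1 to 3. The androgen-binding secretory protein gene Sbp of the ventral lobe lay at 6.40, 6.59 and 6.48 with T+E and at 4.16, 4.27 and 6.96 with EB+T+E. Both genes were thus bright on all 6 arrays, and products of both kinds of lobe were present.

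The EB+T+E arrays were less alike than those of any other group of the series. Over all genes T+E arrays correlated with each other at 0.967 to 0.978, whereas EB+T+E 1 correlated with EB+T+E 2 at 0.942 and with EB+T+E 3 at 0.864. EB+T+E 3 was closer to T+E 3 (0.969) than to EB+T+E 2 (0.911). EB+T+E 1 had a median level over 21 luminal epithelium genes of -1.05, against 1.63 to 2.22 on the other 5 arrays. The median over 18 skeletal muscle genes was 4.33, 2.61 and -5.94 on EB+T+E 1 to 3 and -1.47, 2.36 and -3.94 on T+E 1 to 3, so these genes varied widely within both groups. The part of these differences in the results below was not tested, and results are given with and without the arrays concerned.

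Of 23345 genes tested with limma, 937 changed between EB+T+E and T+E at an adjusted p under 0.05, which is 4.01% of all genes. Higher were 622 (2.66%) and lower 315 (1.35%). These shares are the background for the counts of list members below. Arrays of the groups did not overlap for 805 of the 937, while 9.99% of all genes lay wholly above and 7.04% wholly below T+E. The median log2 ratio was 2.36 over the higher genes and -1.73 over the lower ones, and -0.10 over all genes. On slide 1, which held EB+T+E 1 and T+E 1, all 937 genes had the sign of the full comparison, and on slide 2, with EB+T+E 2 and T+E 2, 930 did. The genes were called from these same arrays, so their signs had little room to differ. EB+T+E 3 lay on slide 4 and T+E 3 on slide 3, outside both pairs. The median difference of the lower genes was -3.04 on slide 1 and -0.79 on slide 2. The number called depended on single arrays. It was 9 without EB+T+E 1, 1525 without EB+T+E 2 and 5552 without EB+T+E 3. Without T+E 1, 2 or 3 it was 14, 301 or 797. The 5552 genes were 2439 higher and 3113 lower, the background for all list counts below without EB+T+E 3. A fit of these 6 arrays alone called 0 genes by limma, with 2166 at an unadjusted p under 0.05, against 5057 in the fit of all groups.

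Genes of neutrophils and their attractants rose. The neutrophil chemokine Cxcl2 had levels of -4.41, -7.16 and -8.00 on T+E 1 to 3 and 2.58, 2.40 and -2.97 on EB+T+E 1 to 3. All EB+T+E arrays lay above all T+E arrays, with EB+T+E 3 nearest to them, and the log2 ratio was 7.19 ± 1.86 (SE, limma adjusted p 0.0301). S100a9, a calcium-binding protein that fills the neutrophil cytoplasm, stood at -5.68, -7.65 and -9.51 with T+E and at 1.11, -0.26 and -2.59 with EB+T+E. Its log2 ratio was 7.03 ± 1.53 (adjusted p 0.0127), again with no overlap. S100a9 was well above background on 1 T+E array, so this ratio is not an exact fold. Its partner S100a8 was not well above background on any T+E array and reached 0.04, -1.41 and -2.73 with EB+T+E, at least 65.3-fold higher (adjusted p 0.0154). Such a bound compares the brighter group's mean with the background limit of the dimmer arrays.

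**Figure D1:**
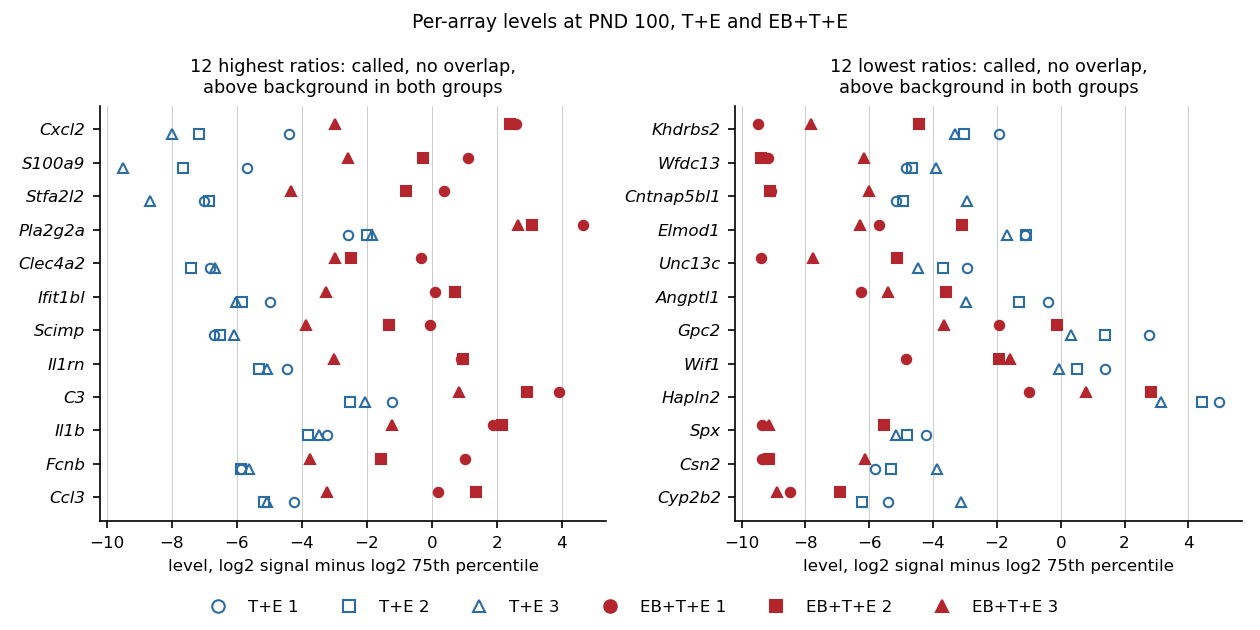
Levels (x axis, log2 signal minus log2 75th percentile) of the 12 genes with the highest and the 12 with the lowest log2 ratio among called genes without overlap that were well above background on at least 1 array of each group, with 1 point per array, open for T+E and filled for EB+T+E. Every EB+T+E array lies above every T+E array on the left and below it on the right, a condition of the choice, and EB+T+E 3 lies nearest to T+E for genes such as Cxcl2, Il1b and Ccl3.

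Interleukin and chemokine genes were also higher. Il1b, the cytokine that starts much of acute inflammation, had levels of -3.22, -3.80 and -3.47 with T+E and 1.89, 2.17 and -1.21 with EB+T+E. EB+T+E 1 and 2 were close together and EB+T+E 3 lower, still above all T+E arrays, with a log2 ratio of 4.45 ± 0.99 (adjusted p 0.0149). The receptor antagonist Il1rn rose by 4.55 ± 1.12 (adjusted p 0.024), and the chemokine Ccl3 by 4.27 ± 1.12 (adjusted p 0.0315). Il17a, the T helper cytokine that calls in neutrophils, was not well above background on any T+E array and was so on EB+T+E 1 and 2 (-0.97 and -3.23), at least 11.6-fold higher (adjusted p 0.0194). Nos2, the inducible nitric oxide synthase, and Il10, which restrains macrophages, rose to at least 3.32-fold and at least 3.69-fold (adjusted p 0.00761 and 0.0114). The epithelial chemokine Ccl20, which draws in cells bearing its receptor, had levels of -5.09, -5.53 and -5.92 with T+E and -2.34, -1.79 and -2.50 with EB+T+E. For Ccl20 the 3 EB+T+E arrays lay together, with a log2 ratio of 3.30 ± 0.84 (adjusted p 0.0272). Tumour necrosis factor (Tnf) stood at 2.76 ± 0.88 and did not pass (adjusted p 0.0699).

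By list, 9 of 17 measured neutrophil genes rose and 0 fell, with a median log2 ratio of 3.69. The 9 include the growth factor receptor Csf3r (at least 10.2-fold, adjusted p 0.00761), the collagenase Mmp8 (at least 4.08-fold, adjusted p 0.00652) and the chemokine receptor Cxcr2 (at least 10.2-fold, adjusted p 0.0304). Of 41 inflammatory mediators 12 rose and 0 fell, with a median of 1.86. On slides 1 and 2 the medians were 4.97 and 3.79 for neutrophils and 2.71 and 2.24 for mediators. Without EB+T+E 1 the medians were 2.76 and 1.33 with 0 members called in either list, and without T+E 1 they were 3.83 and 2.25, again with 0. Without T+E 2 the calls numbered 3 and 2. They were 14 and 27 without EB+T+E 3.

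Other immune genes were among the 12 largest ratios of genes above background in both groups. The secreted phospholipase Pla2g2a, an antibacterial acute phase enzyme, had levels of -2.57, -1.99 and -1.85 with T+E and of 4.66, 3.09 and 2.66 with EB+T+E. The 3 EB+T+E arrays were close together and far above T+E, and the log2 ratio was 5.61 ± 0.80 (adjusted p 0.00271), a 48.7-fold difference. Stfa2l2 of the stefin protease inhibitors rose by 5.93 ± 1.36 (adjusted p 0.0165), and the ficolin Fcnb, a bacterial pattern receptor of myeloid cells, by 4.37 ± 0.82 (adjusted p 0.00738). The lectin receptor Clec4a2, the adaptor Scimp of antigen-presenting cells and the interferon-inducible Ifit1bl rose by 5.04 ± 0.82, 4.69 ± 0.85 and 4.80 ± 1.03 (adjusted p 0.00523, 0.00631 and 0.0114).

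Most macrophage genes rose. Of 30 measured myeloid genes 23 rose and 0 fell, with a median log2 ratio of 2.26, below the neutrophil median of 3.69. With normexp background correction the order turned, with medians of 1.95 for myeloid and 1.64 for neutrophil genes. With genes well above background on at least 17 arrays it turned too, at 2.26 over 30 and 2.00 over 7 genes. The macrophage surface receptor Adgre1 had levels of -3.95, -3.56 and -3.89 with T+E and of -1.04, -1.33 and 0.09 with EB+T+E. Here EB+T+E 3 was the highest array of the group, and the log2 ratio was 3.04 ± 0.55 (adjusted p 0.00631). Cd163, the haemoglobin scavenger receptor of tissue macrophages, stood at -3.27, -2.01 and -3.41 with T+E and at 3.09, 0.25 and -1.31 with EB+T+E. EB+T+E 1 was far above the others, with a log2 ratio of 3.57 ± 0.67 (adjusted p 0.00652). Fcer1g, the signalling chain of Fc receptors, rose by 2.49 ± 0.41 (adjusted p 0.00523), and Csf1r, the receptor for the macrophage growth factor, by 2.25 ± 0.44 (adjusted p 0.00761). The median of the list was 3.51 on slide 1 and 1.84 on slide 2. Without EB+T+E 1 it was 1.78 with 0 members called, without T+E 1 2.17 with 1 called, without T+E 2 2.36 with 15, and without EB+T+E 3 2.75 with 25.

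Complement followed, with 5 of 18 measured genes higher, 0 lower and a median of 1.34. C3, the central complement protein and a classic estrogen-induced gene of the uterus, had levels of -1.21, -2.51 and -2.05 with T+E and 3.91, 2.94 and 0.85 with EB+T+E. The groups did not overlap, with EB+T+E 3 lowest of its group, and C3 rose by 4.49 ± 1.02 (adjusted p 0.0157). The anaphylatoxin receptors C3ar1 and C5ar1 rose by 2.98 ± 0.60 and 2.38 ± 0.60 (adjusted p 0.00828 and 0.0277), and properdin (Cfp) by 2.16 ± 0.47 (adjusted p 0.0125). In MHC class II presentation 2 of 13 rose and 0 fell (median 1.63). These were the lysosomal enzymes Lgmn and Ifi30, which prepare antigens (2.37 ± 0.52 and 1.15 ± 0.32, adjusted p 0.0134 and 0.0399). The invariant chain Cd74 stood at 1.72 ± 0.51 and did not pass (adjusted p 0.0534). In MHC class I presentation 1 of 13 rose (median 0.40), the immunoproteasome subunit Psmb10 at 1.62 ± 0.47 (adjusted p 0.0473). These 3 lists had 0 calls without EB+T+E 1 or without T+E 1, and 10, 9 and 5 higher without EB+T+E 3.

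Most lymphocyte genes did not pass. Of 31 T and NK cell genes 2 rose and 0 fell (median 0.96), where 2.66% of all genes rose and 1.35% fell. The helper T cell coreceptor Cd4, which rat macrophages also carry, stood at -1.02, -0.74 and -0.96 with T+E and at 0.58, 0.31 and 0.36 with EB+T+E. These were tight groups without overlap, and Cd4 rose by 1.33 ± 0.31 (adjusted p 0.0176). The costimulator Icos rose by 3.24 ± 0.87 (adjusted p 0.0355), while Cd8a (2.57 ± 0.94) and Cd8b (2.72 ± 0.85) did not pass (adjusted p 0.113 and 0.0646). Icos and Cd8b were each well above background on 1 T+E array, so their ratios are not exact folds. Of 21 B and plasma cell genes 0 passed (median 0.98), and 5 of them were not well above background on any of the 6 arrays. The B cell marker Ms4a1 was above background with EB+T+E only, at least 4.3-fold (adjusted p 0.0746), and did not pass. Of 18 signals that organize lymphoid tissue 3 rose (median 0.92). Cxcl13, the chemokine of B cell follicles, had levels of -2.51, -3.89 and -3.09 with T+E and of -0.60, 0.17 and 1.38 with EB+T+E. In this gene EB+T+E 3 was the highest array, and the log2 ratio was 3.48 ± 0.81 (adjusted p 0.0178). The B cell survival factor Tnfsf13b rose by 2.00 ± 0.50 (adjusted p 0.0265) and the lymph node chemokine Ccl19 by 3.71 ± 1.08 (adjusted p 0.0484). Of 40 interferon response genes 0 passed (median 0.82), with Oas2 nearest at a limma adjusted p of 0.0548. In these 4 lists 2, 0, 3 and 0 rises became 0 without EB+T+E 1 or T+E 1, and 4, 4, 7 and 6 without EB+T+E 3. Mast cell and eosinophil genes had 1 rise in 13, the eotaxin receptor Ccr3 (at least 6.19-fold, adjusted p 0.0416), and a median of -0.03.

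**Figure D2:**
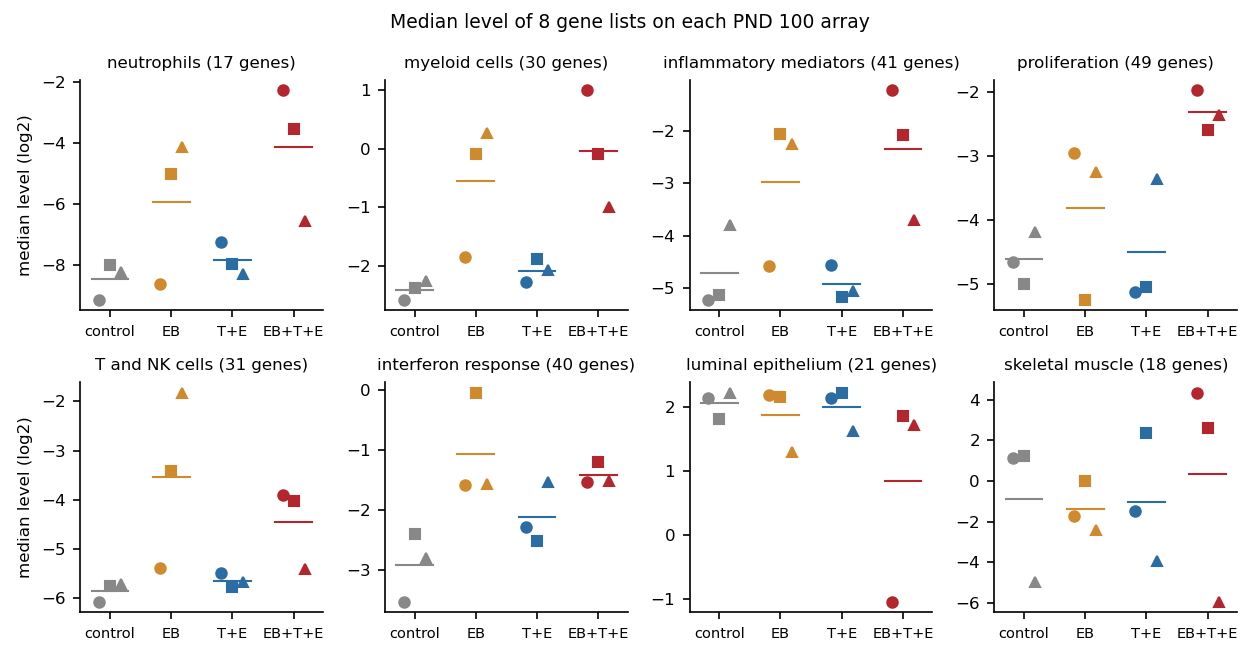
Median level (y axis, log2 signal minus log2 75th percentile) over the measured genes of 8 lists on each of the 12 arrays of PND 100, with circle, square and triangle for replicates 1, 2 and 3 and a line at the group mean. The EB+T+E arrays spread widely for neutrophil, myeloid and mediator genes, while for proliferation all 3 lie between -2.60 and -1.97, above every T+E array.

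Genes of dividing cells rose, and here the EB+T+E arrays were alike. The median level over 49 measured proliferation genes was -5.13, -5.06 and -3.35 on T+E 1 to 3 and -1.97, -2.60 and -2.36 on EB+T+E 1 to 3. The groups did not overlap, T+E 3 was the highest of its group, and the EB+T+E arrays lay within 1 log2 unit of each other. Of the 49 genes 29 rose and 0 fell, with a median log2 ratio of 2.17. Mcm6, a subunit of the helicase that opens DNA for replication, stood at -4.53, -4.44 and -4.03 with T+E and at -1.77, -2.62 and -2.40 with EB+T+E. Both groups were tight, and Mcm6 rose by 2.07 ± 0.32 (adjusted p 0.00404), a 4.19-fold difference. The spindle checkpoint kinase Bub1 rose by 2.59 ± 0.48 (adjusted p 0.00652), the spindle assembly factor Tpx2 by 2.50 ± 0.48 and thymidine kinase (Tk1) by 2.63 ± 0.51 (both adjusted p 0.00761). The proliferation antigen gene Mki67 had levels of -3.43, -3.85 and -1.82 with T+E and of 0.17, -0.98 and -0.87 with EB+T+E. No arrays overlapped, and Mki67 rose by 2.48 ± 0.58 (adjusted p 0.0184). E2f8, a repressor that acts late in the cycle, had the largest ratio of the list (3.32 ± 0.76, adjusted p 0.016). E2f8 and Tpx2 were each well above background on 1 T+E array, so their ratios are not exact folds. Uhrf1, which copies DNA methylation after replication, was not well above background with T+E and rose at least 1.77-fold (adjusted p 0.00637). It was the only call among 14 genes of DNA methylation and estrogen memory, whose median was -0.02.

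The median of the proliferation list was 2.96 on slide 1 and 2.23 on slide 2. It was 1.94 without EB+T+E 1 and 2.14 without EB+T+E 3, close to the full value, while the calls numbered 1 and 33. Without T+E 1 or T+E 2 the median was 1.97 or 1.88 with 1 or 8 called. Myeloid, endothelial and nerve lists also held rises, and their part in this result was not tested. On EB+T+E 1 to 3 the proliferation medians were -1.97, -2.60 and -2.36 and the myeloid medians 0.98, -0.10 and -1.0. The skeletal muscle medians were 4.33, 2.61 and -5.94. How these lists relate was not tested.

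Promoters of the proliferation genes are shown because these genes moved together on all 3 arrays. Of the 29 that rose, 24 had an entry among 27457 RefSeq promoters (build GRCr8), of which the 250 bases before the start were searched on both strands. The letters searched were CCAAT, the box bound by NF-Y, TTTGAA, the core of the cell cycle homology region, and TTTCCCGC, a form of the E2F site. They were chosen after the data were seen. In the sequences below, written 5' to 3' along the gene, capitals mark matches on either strand, and no matches overlap. The mitotic activator Cdc20 (chr5:137255800-137256049, minus strand) holds 2 CCAAT and 1 TTTGAA. The topoisomerase Top2a (chr10:84473094-84473343, minus strand) holds 4 and 1, and the helicase subunit Mcm5 (chr19:13488563-13488812, plus strand) holds 3 CCAAT and 1 TTTCCCGC.
Cdc20: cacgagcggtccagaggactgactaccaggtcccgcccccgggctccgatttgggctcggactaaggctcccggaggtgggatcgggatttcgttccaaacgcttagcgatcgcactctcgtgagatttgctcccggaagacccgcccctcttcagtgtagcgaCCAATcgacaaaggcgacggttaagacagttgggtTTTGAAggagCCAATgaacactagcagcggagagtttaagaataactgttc
Top2a: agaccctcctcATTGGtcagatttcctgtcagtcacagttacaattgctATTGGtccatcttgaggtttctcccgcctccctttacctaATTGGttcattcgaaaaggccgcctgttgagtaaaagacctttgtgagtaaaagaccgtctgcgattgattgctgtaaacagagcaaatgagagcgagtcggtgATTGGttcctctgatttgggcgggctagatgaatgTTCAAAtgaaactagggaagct
Mcm5: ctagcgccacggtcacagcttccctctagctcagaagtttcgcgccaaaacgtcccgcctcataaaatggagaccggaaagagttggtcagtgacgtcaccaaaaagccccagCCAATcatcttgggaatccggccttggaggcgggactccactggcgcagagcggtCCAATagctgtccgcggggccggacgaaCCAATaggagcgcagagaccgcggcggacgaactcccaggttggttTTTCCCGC
Cdc20 had levels of -4.13, -4.16 and -3.24 with T+E and of -2.33, -2.56 and -2.52 with EB+T+E, Top2a of -5.39, -5.42 and -3.58 and of -1.85, -2.38 and -2.0, and Mcm5 of -2.66, -2.40 and -1.71 and of 1.00, -0.40 and -0.87. None of the 3 genes had overlapping groups, and they rose by 1.37 ± 0.38, 2.72 ± 0.71 and 2.17 ± 0.43 (adjusted p 0.0392, 0.0305 and 0.00761).

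CCAAT stood in 20 of the 24 promoters (83.3%), against 34.3% of all promoters, 41.5% of those of called higher genes and 34.2% of those of called lower genes. TTTGAA stood in 7 (29.2%), against 16% of all, 19.8% of called higher and 8.02% of called lower promoters. All 7 also held CCAAT, a pair that 5.76% of all, 10.6% of called higher and 2.14% of called lower promoters had. The 7 were Ccnb2, Cdc20, Cdk1, Ect2, Kif23, Mki67 and Top2a, most of which act in mitosis. TTTCCCGC stood in 1 of the 24, in 0.856% of all, 1.39% of called higher and 0.535% of called lower promoters. The 24 come from a list chosen for cell division, and its members that were not called were not counted apart. These shares therefore cannot tell the genes that rose from the rest of the list. The estrogen response element (GGTCA and TGACC with 3 bases between them) was found in 0 of 359 promoters of called higher and 0 of 187 of called lower genes, and in 0.0219% of all. The androgen response element (AGAACA and TGTTCT with 3 bases between them) was likewise in 0 of both, and in 0.00364% of all. The 2 elements stood in only 6 and 1 of all 27457 promoters. Finding 0 in sets of this size therefore tells nothing about the called genes. A match describes these letters in this window only.

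Khdrbs2 and Hapln2, among the genes that fell, were brighter on every T+E array than on any control array. Khdrbs2, an RNA-binding splicing regulator, had levels of -1.94, -3.02 and -3.31 with T+E and of -9.47, -4.43 and -7.82 with EB+T+E. The groups did not overlap, EB+T+E 2 lay nearest to T+E, and Khdrbs2 fell by 4.48 on the log2 scale (SE 0.83, adjusted p 0.00652). It was well above background on 1 EB+T+E array, so this ratio is not an exact fold. Its control levels were -6.89, -7.79 and -7.66. Hapln2, a link protein that ties hyaluronan to proteoglycans, stood at 4.96, 4.44 and 3.14 with T+E and at -0.98, 2.83 and 0.80 with EB+T+E, and at 0.28, -1.06 and -0.75 on controls. It fell by 3.30 (SE 0.76, adjusted p 0.0165), with EB+T+E 2 again the highest array of its group. Elmod1 and Angptl1 fell with EB in the absence of implants too. Elmod1, a GTPase activator, had levels of -1.11, -1.08 and -1.69 with T+E, -5.69, -3.10 and -6.28 with EB+T+E, -0.02, -0.44 and -0.80 on controls and -3.54, -5.65 and -4.90 on EB arrays. It fell by 3.73 under T+E (SE 0.72, adjusted p 0.00761) and by 4.28 without it (adjusted p 0.00482). Angptl1, a secreted angiopoietin-like protein, fell by 3.53 (SE 0.79, adjusted p 0.0149) and by 4.01 (adjusted p 0.0149).

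The remaining genes with the lowest ratios were varied. The heparan sulfate proteoglycan Gpc2 fell by 3.40 (SE 0.67, adjusted p 0.00761), and the synaptic vesicle primer Unc13c by 3.72 (SE 0.90, adjusted p 0.0212). The peptide hormone spexin (Spx), the milk protein Csn2 and the cytochrome Cyp2b2 fell by 3.28, 3.21 and 3.18 (adjusted p 0.0304, 0.0473 and 0.0467). Wfdc13 and Cntnap5bl1 fell by 3.77 and 3.73 (adjusted p 0.0416 and 0.0329). Of these 7 genes all but Gpc2 were well above background on 1 EB+T+E array. The vomeronasal receptor genes Vom2r4 and Vom2r3 were at least 13-fold and at least 9.82-fold lower (adjusted p 0.00554 and 0.00761). The nuclease Dnase2b ran from 3.32 and 1.16 on T+E 1 and 2 to -6.79 on T+E 3, was not well above background with EB+T+E, and did not pass (at least 82.5-fold lower, adjusted p 0.0955). It passed without T+E 3 (adjusted p 0.01815) and with array weights (adjusted p 0.0213), a fit that did not converge.

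Wif1, a secreted inhibitor that binds Wnt ligands, had levels of 1.40, 0.50 and -0.05 with T+E and of -4.83, -1.93 and -1.58 with EB+T+E. The groups were apart and EB+T+E 1 was lowest, with a fall of 3.40 (SE 0.58, adjusted p 0.00523). The following genes were chosen after their values were seen, and no list of Wnt genes was fixed. The Wnt deacylase Notum and the ligand Wnt2 were not well above background with EB+T+E, at least 2.19-fold and at least 3.19-fold lower (adjusted p 0.00568 and 0.0282). The receptor-removing ligase Znrf3 and the transcription factor Tcf7l2 fell by 1.25 and 1.48 (SE 0.31 and 0.34, adjusted p 0.0265 and 0.018). Axin2, a common readout of the pathway, stood at -1.57 ± 0.80 and did not pass (adjusted p 0.249). In the list of branching and developmental signals 1 of 32 fell, Tgfb3 (-1.14 ± 0.30, adjusted p 0.033), 0 rose and the median was -0.05. It had 7 higher, 4 lower and a median of 0.42 without EB+T+E 3. That fit called 2439 higher and 3113 lower of all 23345 genes.

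Of 21 luminal epithelial genes 2 fell and 0 rose (median -1.26), and 1 had a ratio above 0. Foxa1, the factor that opens chromatin for steroid receptors in the prostate, had levels of 0.94, -0.04 and -0.60 with T+E and of -2.98, -1.02 and -1.54 with EB+T+E. The groups did not overlap, and Foxa1 fell by 1.95 (SE 0.45, adjusted p 0.0166). The luminal median was -3.41 on slide 1 and -0.39 on slide 2. It was -0.21 without EB+T+E 1 with 0 called, and -1.83 without EB+T+E 3 with 15 called. The epithelial adhesion gene Epcam had levels of 3.23, 2.88 and 2.35 with T+E and of -0.34, 2.66 and 1.71 with EB+T+E, and did not pass (-1.47 ± 0.43, adjusted p 0.051). The ETS factor Elf5, chosen after its values were seen, fell by 2.55 (SE 0.56, adjusted p 0.0127). In basal and squamous epithelium 0 of 22 passed (median 0.53).

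The hormone receptors Esr1, Esr2, Pgr and Prlr did not pass the test. The estrogen receptors Esr1 and Esr2 had log2 ratios of -0.62 ± 0.47 and -1.01 ± 0.68 (adjusted p 0.454 and 0.392), the progesterone receptor Pgr at 0.36 ± 0.69 (adjusted p 0.788) and the prolactin receptor Prlr at -2.22 ± 1.20 (adjusted p 0.279). The groups overlapped for all 4. Without EB+T+E 3, Esr2 and Prlr stood at -1.98 and -4.22 and passed (adjusted p 0.0289 and 0.00675). With array weights Prlr passed too (adjusted p 0.005355). Pgr was well above background on 1 array of each group, and the signs of Esr2 and Pgr turned when single arrays were left out. Of 22 steroid receptors and enzymes 0 passed, with a median of -0.36. Of 30 androgen-responsive genes 1 fell and 0 rose (median -0.39). Of 28 estrogen-responsive genes 1 rose, C3, and 0 fell (median 0.39). Over all genes 2.66% rose and 1.35% fell. There were 2 higher and 10 lower androgen-responsive and 8 higher and 1 lower estrogen-responsive genes without EB+T+E 3. That fit called 2439 higher and 3113 lower of all 23345 genes. Both lists had 0 calls without EB+T+E 1.

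Few secretory and metabolic genes passed. Of 6 dorsolateral products 0 passed (median -0.88), and 3 fell without EB+T+E 2 (median -1.33). Transglutaminase Tgm4, the clotting enzyme of semen, had levels of 5.67, 6.80 and 6.83 with T+E and of 4.07, 6.57 and 1.35 with EB+T+E, at -2.43 ± 0.72 (adjusted p 0.0514). Of 4 ventral products 0 passed (median -0.35). Of 8 seminal vesicle products, which come from the neighbouring gland, 1 fell (median -2.75), Svs4 by 1.81 (SE 0.43, adjusted p 0.0194) with overlapping arrays. In cholesterol and fatty acid synthesis 1 of 32 fell and 1 had a ratio above 0 (median -0.96). Of these 32, 25 fell without EB+T+E 3 (median -1.74) and 0 without EB+T+E 1 (median -0.50). The unfolded protein response had 1 fall in 27, the stress sensor Atf6 (-0.87 ± 0.23, adjusted p 0.0328), and a median of -0.51. Of the 27, 12 fell without EB+T+E 3 (median -0.82) and 0 without EB+T+E 1. Glutathione and antioxidant genes had 0 calls in 26 (median 0.06).

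Most genes of stroma and neighbouring tissues did not pass, and ranges were large. Among all genes 2.66% rose. Of 42 fibroblast and matrix genes 2 rose (median 0.65), the protease inhibitor Timp1 (2.36 ± 0.59, adjusted p 0.0265) and periostin (Postn, 2.00 ± 0.58, adjusted p 0.0472). Of 20 endothelial genes 2 rose (median 0.91), the venular chemokine receptor Ackr1 (2.24 ± 0.51, adjusted p 0.0159) and the junction protein Esam (1.88 ± 0.54, adjusted p 0.0475). These lists had 30 and 15 higher without EB+T+E 3, and 0 without EB+T+E 1. Smooth muscle, adipocyte, skeletal muscle and spermatid genes had 0 calls (medians -0.76, -0.55, 1.51 and 1.84). The skeletal muscle median was -0.32 without EB+T+E 1 and 4.45 without EB+T+E 3, with 7 higher, and the adipocyte median was 0.66 without T+E 2. Of the 15 spermatid genes 2 were not well above background on any of the 6 arrays.

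Nerve genes had the largest bound among the named genes that rose. Vip, a relaxing neuropeptide of pelvic ganglia, was not well above background on any T+E array and reached 1.31, -0.88 and -4.14 on EB+T+E 1 to 3, at least 74.7-fold higher (adjusted p 0.00848). On controls 1 to 3, all well above background, Vip stood at -6.45, -4.09 and -2.88, a range that holds EB+T+E 3. Dbh, which makes noradrenaline, and the granule protein Chgb were at least 29.6-fold and at least 19.9-fold higher (adjusted p 0.0457 and 0.0265). In all, 3 of 27 nerve and ganglion genes rose, and the adhesion gene Ncam1 fell (-2.08 ± 0.53, adjusted p 0.0282). The median level of the list was -2.12, -3.64 and -5.18 on EB+T+E 1 to 3 and -6.12, -5.65 and -6.17 on T+E 1 to 3. On controls 1 to 3 it was -5.78, -4.40 and -3.59, so EB+T+E 2 and 3 lay within the control range and EB+T+E 1 above it. Without EB+T+E 1 or T+E 1 there were 0 calls. The part of ganglion tissue in this result was not tested.

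**Figure D3:**
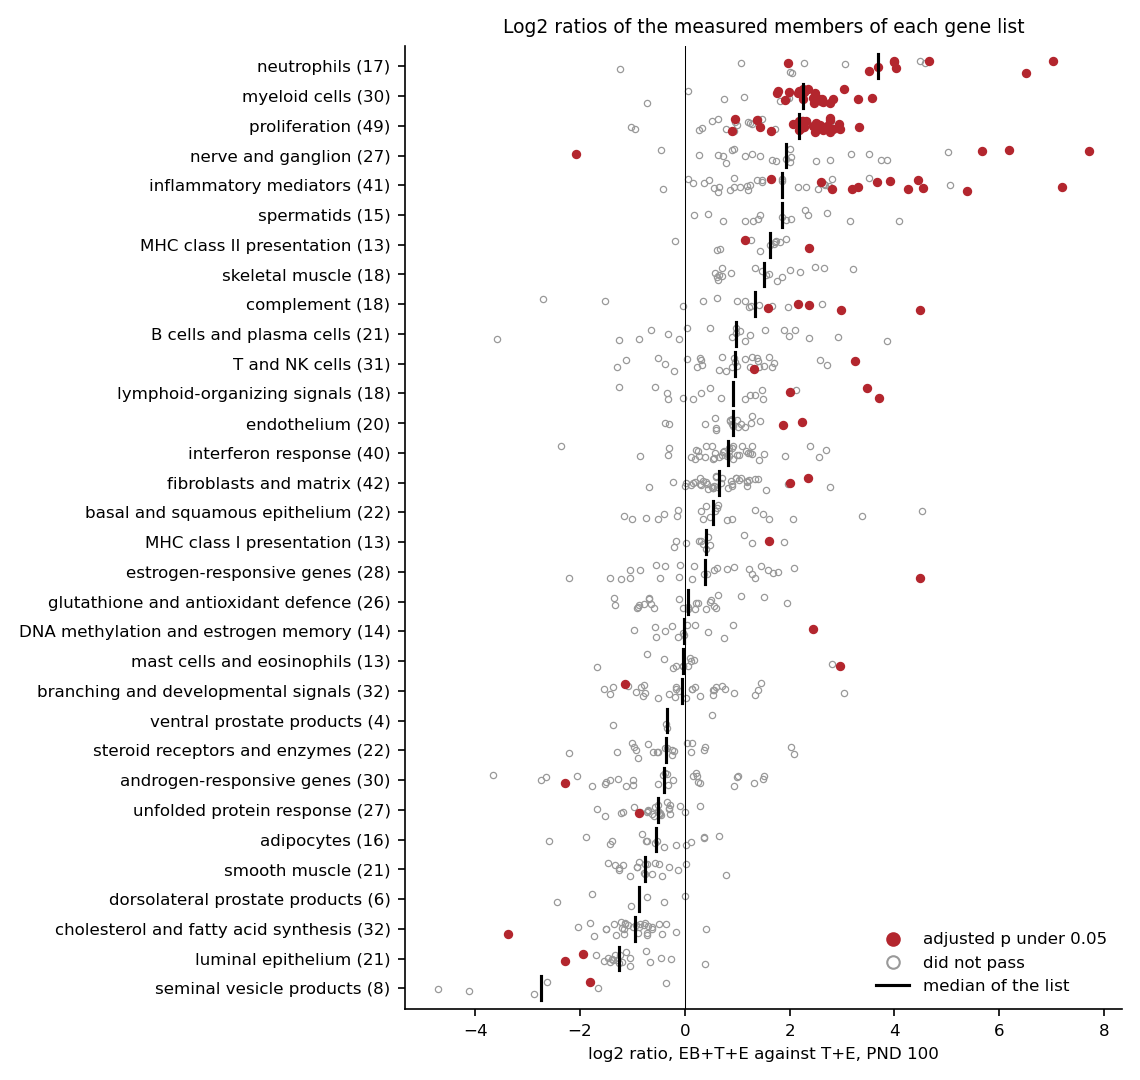
Log2 ratio at PND 100, EB+T+E over T+E (x axis), for each measured member of 32 gene lists (rows, with the number measured), filled where limma's adjusted p was under 0.05, with a bar at the list's median. Calls gather in neutrophil, myeloid, mediator and proliferation genes, and luminal genes lie mostly below 0.

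EB without implants gave a comparison with no shared array. Between EB and control at PND 100 limma called 634 genes (2.72%), 424 higher (1.82%) and 210 lower (0.9%). Of the 937 genes called under T+E, 795 (84.8%) had the same sign there, against 66.6% of all genes, and their median log2 ratio was 1.35 for the higher and -0.57 for the lower ones. Called in both in the same direction were 103, which is 11.0% of the first list and 16.2% of the second, and 0 in opposite directions. Of the EB arrays, EB 1 lay nearest to the controls for myeloid genes, with a median of -1.85 against -0.09 and 0.27 on EB 2 and 3. Controls 1 to 3 stood at -2.56, -2.37 and -2.24. For interferon response genes EB 1 (-1.59) lay near EB 3 (-1.56) and above all controls (-3.52, -2.40 and -2.80). Without EB 3 6 genes were called, without EB 1 2719, and without control 1, 2 or 3 29, 170 or 51. List medians under T+E and without it were 3.69 and 2.30 for neutrophils, 2.26 and 1.76 for myeloid cells, 0.96 and 2.17 for T and NK cells and 2.17 and 0.60 for proliferation. In proliferation 29 genes passed as higher under T+E and 0 without it. The proliferation median was -2.95, -5.25 and -3.24 on EB 1 to 3 and -4.66, -5.01 and -4.19 on controls 1 to 3. EB 1 and EB 3 thus lay above all controls, and EB 2 lay below them.

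The difference between the effects was tested directly, as the EB effect with implants minus that without. Limma called 0 of 23345 genes (0%), with 2025 at an unadjusted p under 0.05. Without EB+T+E 3, 352 were called. The smallest p-values with a higher ratio under T+E belonged to Homer1, Vip, Ckap2l and Ccne1, each at an adjusted p of 0.253. Ccne1, the cyclin that drives entry into S phase, had levels of -3.86, -3.85 and -2.35 with T+E, -0.68, -1.83 and -1.27 with EB+T+E, -2.01, -2.40 and -2.03 on controls and -2.28, -3.07 and -2.83 on EB arrays. Its log2 ratio was 2.09 ± 0.41 under T+E (adjusted p 0.00761) and -0.58 without it (adjusted p 0.42), a difference of 2.67 ± 0.58. Those with a lower ratio were Gigyf1, Plekha6, Cpxm2 and Mmp11. The median difference of the proliferation list was 1.17 and that of T and NK cells -1.01, with 0 members called in either.

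**Figure D4:**
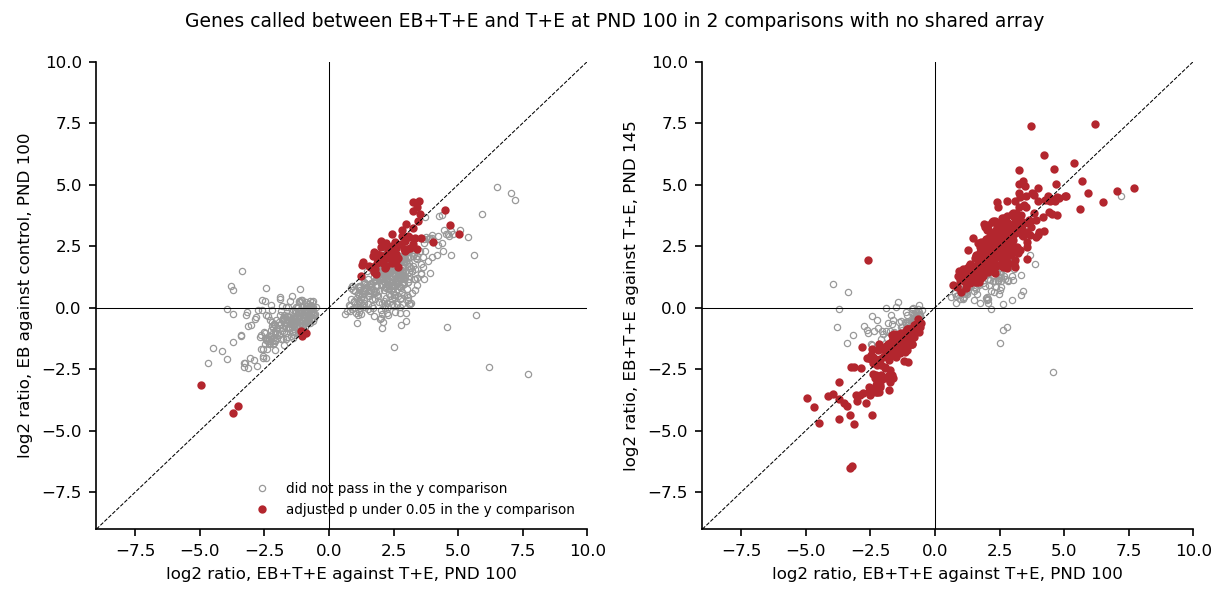
Log2 ratios of the 457 higher and 234 lower called genes that have a symbol (x axis, EB+T+E over T+E at PND 100) in EB over control at PND 100 (left) and in EB+T+E over T+E at PND 145 (right), filled where they passed in the y comparison, with a dashed line of equal ratios. Most points share their sign in both panels, and more are filled on the right.

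At PND 145, after 55 days of implants, EB+T+E and T+E again had arrays of their own. Limma called 4988 genes (21.4%), 2264 higher (9.7%) and 2724 lower (11.7%). Of the 937 genes of PND 100, 916 (97.8%) had the same sign, against 73.9% of all genes, and 667 were called in the same direction, 71.2% of the first list and 13.4% of the second. In opposite directions 2 were called. Single arrays moved the count at PND 145 between 2350 without T+E 3 and 5740 without EB+T+E 3. Lymphocyte and interferon lists had their larger medians at the later age. T and NK cells had 0.96 at PND 100 and 3.44 at PND 145, with 2 and 26 of 31 higher. B and plasma cells had 0.98 and 4.33, with 0 and 17 of 21 higher, and interferon response 0.82 and 2.97, with 0 and 35 of 40 higher. Neutrophil and myeloid medians were 3.69 and 3.06, and 2.26 and 2.60, and that of proliferation was 2.17 and 1.56. Neutrophil median levels were -2.28, -3.53 and -6.56 on EB+T+E 1 to 3 of PND 100 and -3.29, -2.43 and -3.10 at PND 145. On T+E 1 to 3 they were -7.23, -7.97 and -8.27 at PND 100 and -6.97, -4.71 and -7.34 at PND 145. Of these T+E arrays, T+E 2 of PND 145 was the highest.

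The change of the effect with age was called for 49 genes (0.21%), 42 with a larger ratio at PND 145 (0.18%) and 7 with a smaller one (0.03%). Among the list members 3 B and plasma cell genes were in the first set, and 0 of the T and NK cell or interferon genes passed. Mzb1, a chaperone of antibody-secreting cells, was not well above background on any of the 6 arrays of PND 100. At PND 145 it was so on all EB+T+E arrays (-1.61, -1.96 and -3.72) and on no T+E array, a difference of effects of 6.27 ± 1.23 (adjusted p 0.0291). The aldose reductase relative Akr1b7 had a log2 ratio of -1.32 ± 0.53 at PND 100 (adjusted p 0.147), where it was not well above background on any EB+T+E array, and of -5.67 ± 0.53 at PND 145 (adjusted p 1.83e-07). Without single arrays the count of 49 ran from 10 to 198, and it was 10 without EB+T+E 1 of PND 100 and 128 without EB+T+E 3 of PND 100.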

How the data were processed

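Cy3-labelled RNA of 33 rat prostate samples was hybridized to 1-colour Agilent arrays, per the labels' protocols. The deposited spot intensities, linear and background-subtracted but unscaled, came from Agilent Feature Extraction 12.0.0.7 (protocol GE1_1200_Jun14), per the file headers. A table of values that the authors deposited gives linear, uncentred intensities for these arrays, with a 75th percentile of about 619 and medians of 30.8 to 49.9; its making is not given.

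Each intensity was divided by its array's 75th percentile and taken to log2, outlier spots were left out and spots of 1 probe averaged. Of 45598 probes, 30542 rose well above background on 3 or more of the 33 arrays. The brightest probe stood for a gene, leaving 23345 genes, 15540 with a symbol. Names came from the RefSeq gene table by accession (21177 probes), symbol (9067) or synonym (406), or from the file (5247), and 9701 probes had none. Means of 10 groups over 33 arrays were fitted with limma 3.58.1 (R 4.3.3), with trended, robust variance and p-values adjusted (Benjamini-Hochberg) separately in 5 comparisons, at 0.05. Standard errors come from this fit. Named were the 12 highest and 12 lowest called genes without overlap that have a symbol and a signal above background in both groups, the 3 largest bounds in each direction, up to 4 members of each list with the smallest p, hormone receptors, and 4 genes in each direction for the differences of effects. Some genes that this rule names are not reported here. Other genes are marked as chosen after their values were seen or are members of a list. Members and lists were chosen with earlier results of these data known.

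Same-numbered arrays of the compared groups deviated together at 0.07, 0.15 and 0.46, so the numbers were not taken as pairs. In a test on simulated data with 200 changed genes among 23132, the fit found 11% of those shifted by a log2 of 1 and 64% of those shifted by 2, with 3 false calls. The simulation gave every group the same spread for a gene, while the real EB+T+E arrays of PND 100 were the least alike. These shares and false calls therefore cannot be carried over to the present comparison. Slides 1 to 4 held several groups each with 1 scan time per slide. Also tried were quantile scaling, normexp background correction (offset 50), other filters (none, or at least 17 arrays), slide or replicate number as a block, only the groups compared, array weights, the mean of probes, the deposited table, a 2-fold minimum and each array left out. Python 3.11.15 with pandas 2.3.3 read the files, and figures were drawn with matplotlib 3.10.9.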

Additional observations from a re-analysis of the deposited data

Results flagged for a closer look

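The effect of EB under T+E differed between PND 145 and PND 100 by limma's test of the difference for 49 genes. Among named genes the difference of log2 ratios was 4.53 ± 0.87 for the splicing factor Srsf12 (adjusted p 0.0268), 6.27 ± 1.23 for Mzb1 (0.0291), 3.97 ± 0.79 for the elongation factor Ell3 (0.0291) and 4.80 ± 0.99 for the tryptophan-degrading enzyme Ido1 (0.0405). It was -4.35 ± 0.75 for Akr1b7 (0.00967), -7.16 ± 1.52 for the muscle protein Ankrd2 (0.0445), -2.28 ± 0.48 for the retinol esterifying enzyme Lrat (0.0445) and -3.96 ± 0.84 for the synaptic scaffold Homer1 (0.0445). Ankrd2 had levels of 0.51, -2.49 and -6.65 on EB+T+E 1 to 3 of PND 100. It was not well above background on any T+E array of that age. The skeletal muscle medians were 4.33, 2.61 and -5.94 on these EB+T+E arrays and -1.47, 2.36 and -3.94 on T+E 1 to 3. The part of muscle in this difference was not tested. Homer1 lay at -1.51, -2.56 and -3.79 with EB+T+E and at -5.41, -6.20 and -3.85 with T+E at PND 100. Srsf12, Mzb1 and Ido1 were not well above background on EB+T+E arrays of PND 100 nor on T+E arrays of PND 145, so their differences are not exact folds. Akr1b7 was likewise not well above background on EB+T+E arrays of PND 100. Groups of 3 arrays were not tested for outlying arrays.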

How the results depend on the processing

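Called genes between EB+T+E and T+E at PND 100 numbered 937, and 407 with normexp background correction, 1587 with slide as a block, 0 with only the groups compared and 5075 with array weights, a fit that did not converge. Single arrays moved the count between 9 and 5552. The replicate block gave 759, of which 738 were among the 937. Of the 937 genes, those tested (791 with the filter of 17 arrays) kept their direction in each of these fits, except 2 with the mean of probes and 1 with the deposited table. Within slide 2, 930 had the same sign. These fits reuse the arrays that called the 937 genes, so a kept direction was largely set in advance. For EB against control (634) the values were 91 with normexp, 264 with no filter, 1610 with slide, 396 with the replicate block, 0 with only the groups compared, 5439 with array weights, and 6 to 2719 without single arrays. The difference of effects (0) gave 1064 with array weights and 0 to 352 without single arrays. At PND 145 (4988) array weights gave 11878 and single arrays 2350 to 5740. The change with age (49) was 32 with no filter, 0 with a filter of 17 arrays, 22 with slide, 16 with the replicate block, 2665 with array weights and 10 to 198 without single arrays. Without single arrays Esr2 ran from -1.98 (without EB+T+E 3) to 0.20 (without EB+T+E 1) and Pgr from -0.094 (without EB+T+E 2) to 0.91 (without T+E 3), with -0.090 without T+E 2. With normexp Pgr stood at -0.043. Among list medians, 556 values moved by less than the spread between arrays and 38 by more. The median turned sign under at least 1 alternative for 7 lists, such as skeletal muscle (1.51 to -0.32 without EB+T+E 1) and adipocytes (-0.55 to 0.66 without T+E 2). The filter of 17 arrays tested 791 of the 937 genes and called 790. Otherwise the cause was not tested.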
